A study of Mus musculus with 6 samples.

Results

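Whey acidic protein (WAP) domain inhibitors are small secreted proteins, and 10 of their genes were followed here in the testis of mice without TAp73: Wfdc18, Wfdc17, Slpi, Wfdc12, Wfdc15b, Wfdc2, Wfdc1, Wfdc3, Wfdc8 and Wfdc10. They are 10 of the 19751 genes named on the array and were read by 12 of its 39429 probes. Members were taken by name, as listed genes with a WAP domain, and the list was chosen by their scaled signals in knockout and wild type on these same arrays, which were already known. Their knockout against wild type values are therefore a description and carry no test of their own. The samples were whole testes of C57BL/6J males aged 10 weeks, 3 of genotype TAp73 KO and 3 wild type, each on 1 single-colour Agilent array. TAp73 names the Trp73 transcripts whose protein keeps the transactivation domain of p73, a member of the p53 family of transcription factors. The labels do not describe the knockout allele further, and they name no treatment.

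The WAP domain, also called the four-disulfide core, is a short fold held by cysteine pairs and named after a milk protein of rodents. Many proteins that carry it block serine proteases such as neutrophil elastase, and several kill or restrain bacteria. They are made by secretory epithelia and by myeloid cells, and a large share of the family is expressed in the male reproductive tract, where the best known member, Eppin, coats sperm. In the mouse most of the genes form a cluster on chromosome 2, where they alternate with genes of seminal vesicle proteins. A smaller group that includes Wfdc17 and Wfdc18 lies on chromosome 11 beside CC chemokine genes.

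The arrays read 74.4% to 84.4% of probes well above background, and 1.6% to 4.4% were saturated. They lay on 2 slides, with knockout replicates 1 and 2 and wild type replicates 1 and 3 on slide 1 and knockout replicate 3 and wild type replicate 2 on slide 2. Knockout replicate 1 stood apart on the first principal component (-66.2, the other 5 arrays -4.9 to 30.8). The targeted gene followed the scanner files' labels. In units of processed signal, the Trp73 probe A_52_P193555 gave 17.2, 4.81 and 5.17 in the knockouts, against 605, 548 and 587 in wild type. Trp73 probe A_55_P1988133 gave 39.1, 28.4 and 23.1, against 378, 308 and 301. Probe A_52_P410636 kept more signal, at 566, 371 and 394 in the knockouts against 1077, 975 and 1061 in wild type. Their log2 differences were -6.01, -3.21 and -0.99, in this order. The deposited value table names the same arrays the other way round, so every direction below would turn under its labels. All 9 germ cell markers were detected, but 6 of them (Prm1, Prm2, Tnp1, Tnp2, Acr and Ddx4) were saturated on 3 to 5 of the 6 arrays, so their values say little of a difference between the groups. The 3 unsaturated germ cell markers, Acrv1 (0.21), Sycp3 (0.08) and Zbtb16 (-0.36), did not pass (limma adjusted p = 0.209 to 0.63). Acrv1 had the knockouts wholly above the wild types after scaling, and the groups overlapped for Sycp3 and Zbtb16. The scaled signals of these 3 markers summed to 16.4 to 17.4 in the knockouts and 14.3 to 15.8 in wild type.

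Of the 12 member probes, 2 passed the threshold in the lower direction and 0 in the higher direction, while 10 did not pass. The threshold was an adjusted p under 0.05 in the limma fit over all 31801 tested probes. Among all tested probes, 2.64% were called lower and 0.248% higher. Since the members were chosen with this contrast known, nothing is read from their share. All 12 probes passed the filter, which asked for 3 or more arrays with a signal well above background. Of these probes, 10 were well above background on all 6 arrays, and none was saturated. After scaling, all 3 knockouts lay below all 3 wild types for 4 member probes, those of Wfdc18, Wfdc17 and Wfdc10 and 1 of the 2 for Wfdc2. The groups overlapped for the other 8. Over all tested probes, 13.0% had the knockouts wholly below and 18.5% wholly above. With 1 probe taken per gene, the median log2 difference of the 10 genes, knockout minus wild type, was -0.46, with 8 negative. The same median over 16947 measured genes was 0.05. In whole testis, fewer cells of a type and less RNA per cell cannot be told apart.

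Wfdc18 had the largest difference of the 12 probes. The gene encodes a secreted inhibitor first described as an extracellular proteinase inhibitor of the mouse mammary gland. Its probe A_51_P246166 (NM_007969) read 72.8, 27.5 and 18.2 units in knockout replicates 1, 2 and 3, against 322, 284 and 301 units in wild type replicates 1, 2 and 3. The wild types lay close together and all above the knockouts, which spread more widely among themselves. On the scaled log2 scale the SD was 0.89 in the knockouts and 0.02 in wild type (n = 3 each). The signal was 7.62-fold lower in the knockout, a log2 difference of -2.93 (SE 0.42), and it passed the threshold. It was not well above background in knockout replicate 3, where the spot's raw median was 55.0 units over a local background of 33.0 units. In wild type replicates 1, 2 and 3 the raw medians were 401, 334 and 355 units, over local backgrounds of at most 26.0 units. The difference was -2.54 within slide 1 and -3.72 between the 2 arrays of slide 2.

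Wfdc17 encodes a WAP protein that activated macrophages and microglia are known to secrete. Its probe A_52_P700056 (NM_001081957) read 662, 378 and 525 units in the knockouts, against 2371, 1945 and 1831 units in wild type. The highest knockout thus stayed well under the lowest wild type, and the probe was well above background on every array. The signal was 3.35-fold lower in the knockout, with a log2 difference of -1.74 (SE 0.15) that passed the threshold. The SDs were 0.26 in the knockouts and 0.15 in wild type (n = 3 each). Both slides gave a value of similar size, -1.79 within slide 1 and -1.64 in the slide 2 pair.

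**Figure D1:**
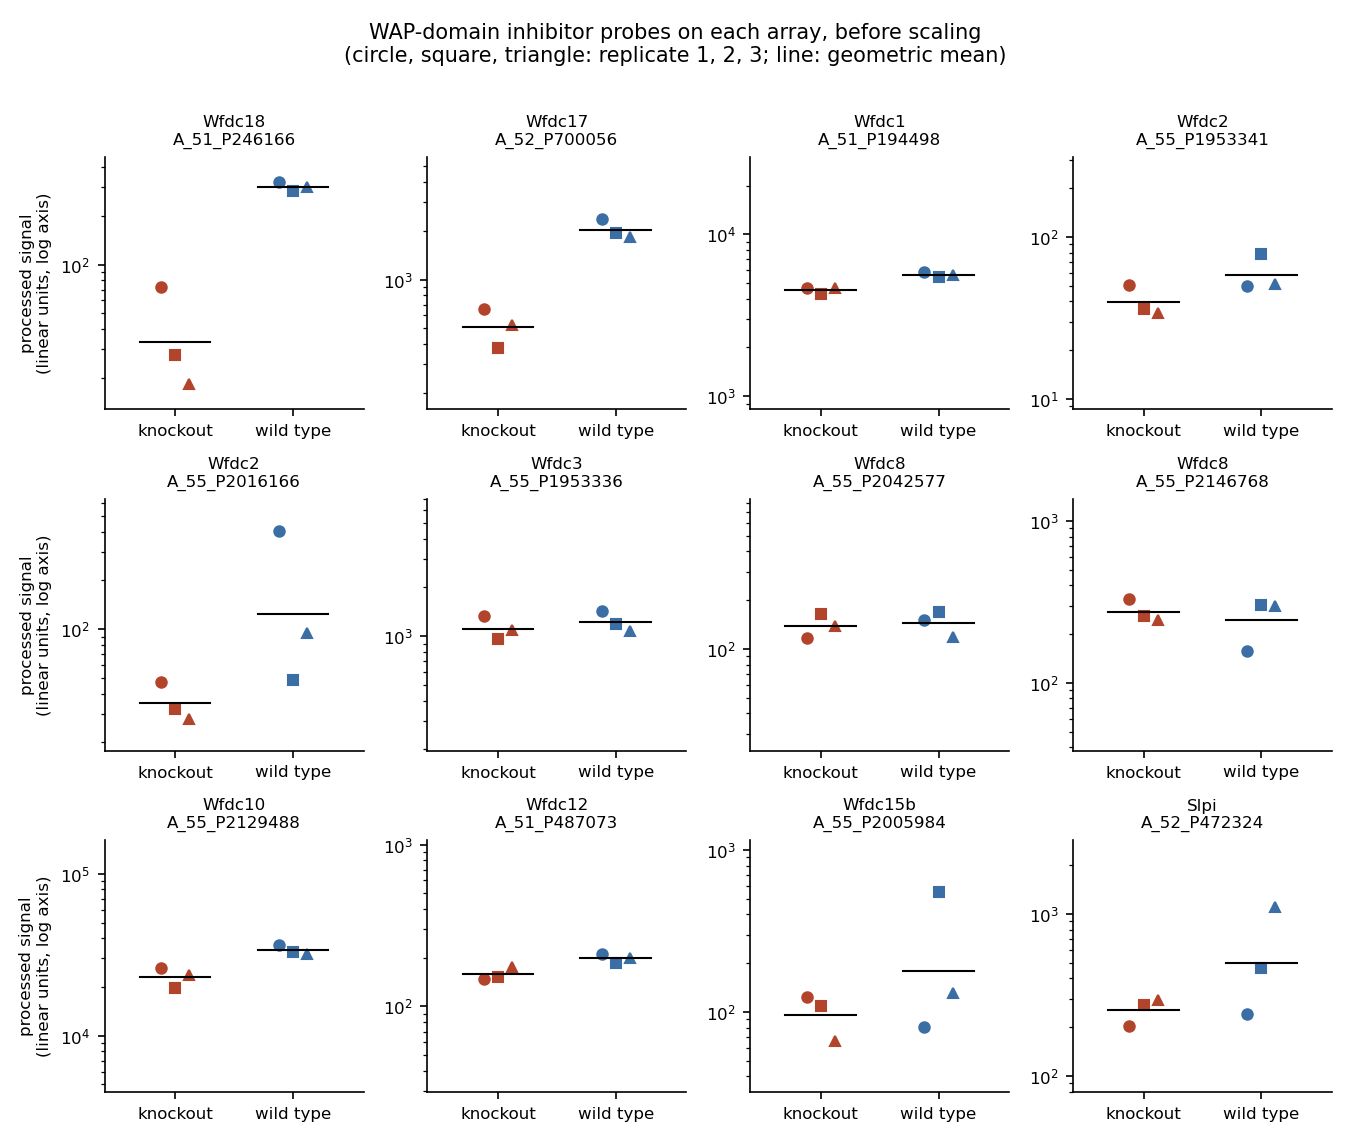
Processed signal of the 12 member probes on each array (linear units before scaling, log axis, every panel spanning the same fold range). Knockouts are on the left and wild types on the right, symbols mark replicates 1 to 3, and the line is the geometric mean. Wfdc18 and Wfdc17 show the widest gaps between groups, while Slpi, Wfdc15b and Wfdc2 probe A_55_P2016166 each have 1 wild type array far above the other 2.

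The 250 bases upstream of the annotated start are shown for Wfdc18 and Wfdc17, the neighbours that both passed, and for Slpi, whose wild types disagreed. The sequences are RefSeq's on assembly GRCm38.p6, 5′ to 3′ on the gene's own strand. Wfdc18 is at chr11:83708754-83709003 (plus strand), Wfdc17 at chr11:83703806-83704055 (plus strand) and Slpi at chr2:164356508-164356757 (minus strand). Capitals mark 2 motifs on either strand: TATAAA, the core promoter element, and TTNNGNAA, which is a loose form of the site of C/EBP factors.
Wfdc18: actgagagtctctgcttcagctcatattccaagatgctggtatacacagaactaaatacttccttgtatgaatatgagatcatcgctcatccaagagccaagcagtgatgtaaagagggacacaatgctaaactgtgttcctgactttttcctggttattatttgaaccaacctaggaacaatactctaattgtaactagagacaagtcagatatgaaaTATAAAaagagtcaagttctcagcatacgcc
Wfdc17: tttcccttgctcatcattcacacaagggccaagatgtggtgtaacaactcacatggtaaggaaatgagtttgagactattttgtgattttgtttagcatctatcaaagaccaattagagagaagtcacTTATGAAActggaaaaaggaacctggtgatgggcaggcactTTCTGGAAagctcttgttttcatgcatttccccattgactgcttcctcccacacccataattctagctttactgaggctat
Slpi: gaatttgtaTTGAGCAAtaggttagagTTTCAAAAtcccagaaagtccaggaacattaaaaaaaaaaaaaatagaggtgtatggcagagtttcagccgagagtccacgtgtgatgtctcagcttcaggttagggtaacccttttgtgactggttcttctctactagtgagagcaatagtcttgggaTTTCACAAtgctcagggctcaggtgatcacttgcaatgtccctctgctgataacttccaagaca

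The Wfdc18 window held TATAAA at positions -31 to -26 before the start, and the Wfdc17 window held none. TATAAA was in 12.97% of 27025 promoter windows of the same length, searched on both strands. Wfdc17 had TTNNGNAA starting at -122 and at -81, a CCAAT box at -141, and GAGGAA, a PU.1 core motif, on the minus strand at -39. Slpi had TTNNGNAA at -241, -223 and -64. This loose motif was found in 7 of the 9 member promoters with a RefSeq entry and in 36.89% of all windows. CCAAT stood in 34.46% and GAGGAA in 23.13% of all windows, and each in 2 of the 9 member promoters. The motif TGANTCA of AP-1 (6.87% of all windows) and the p53 family half-site (7.18%) were in 0 of 9. Wfdc17 and Wfdc18 were no more alike in this window than other member pairs. Their alignment had 34.8% identical columns and their longest shared run was 8 bases, while the other 35 pairs had 36.8% to 48.4% and runs of 6 to 9 bases. Matches describe letters in a window and name no bound factor.

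Slpi encodes the secretory leukocyte protease inhibitor, which blocks neutrophil elastase and cathepsin G. Its probe A_52_P472324 (NM_011414) read 203, 274 and 293 units in the knockouts, against 243, 462 and 1109 units in wild type. The groups overlapped, because wild type replicate 1 lay within the knockout range while replicate 3 lay far above every other array. The log2 difference was -0.72 (SE 0.56) and did not pass. The wild type SD of 1.13 (n = 3) exceeded that of 99.29% of tested probes. In the knockouts the SD was 0.44 (n = 3). The difference was -0.14 without wild type replicate 3 and -1.27 without wild type replicate 1, so its size rested on single arrays. Leaving out wild type replicate 3 was singled out after its value had been seen.

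Wfdc12 and Wfdc15b encode small WAP proteins with antibacterial activity known from mouse. Wfdc12 probe A_51_P487073 (NM_138684) read 147, 153 and 175 units in the knockouts, against 212, 185 and 200 units in wild type. The unscaled groups did not overlap, but the wild type arrays' 75th percentiles, to which signals are scaled, lay 0.26 log2 units above those of the knockouts. After scaling the groups overlapped, with a difference of -0.07 (SE 0.13). Wfdc15b probe A_55_P2005984 (NM_138685) read 123, 109 and 66.4 units in the knockouts, against 80.4, 549 and 132 units in wild type. Only wild type replicate 2 stood apart, and the groups overlapped. The Wfdc15b difference was -0.64 (SE 0.72), with a wild type SD of 1.5 (n = 3) above 99.69% of tested probes. It was 0.44 within slide 1 and -2.80 in the slide 2 pair, and 0.20 without wild type replicate 2.

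Wfdc2, known in human as HE4, is a WAP protein of secretory epithelia that was first described in the epididymis. Its 2 probes carry the same accession (NM_026323) and gave different values. A_55_P2016166 read 46.8, 32.2 and 27.9 units in the knockouts, against 404, 48.7 and 95.3 units in wild type. Wild type replicate 1 was high, and the next 2 wild types lay closer to the knockouts. The difference of this probe was -1.57 (SE 0.70), with an SD of 1.5 in wild type and 0.26 in the knockouts (n = 3 each), and it did not pass. Without wild type replicate 1 it was -0.75. A_55_P1953341 read 50.5, 36.0 and 33.8 units in the knockouts, against 49.9, 79.0 and 51.3 units in wild type. On that probe wild type replicate 2 was the highest array, replicate 1 lay within the knockout range, and the difference was -0.31 (SE 0.22). The high array thus differed between the 2 Wfdc2 probes.

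Wfdc1, also known as ps20, is a secreted protein of prostate stroma with growth-restraining activity. Its probe A_51_P194498 (NM_023395) read 4641, 4257 and 4678 units in the knockouts, against 5811, 5423 and 5641 units in wild type. As for Wfdc12, the groups were apart before scaling and overlapped after it, with a difference of -0.06 (SE 0.09). Wfdc3 probe A_55_P1953336 (NM_027961) read 1323, 961 and 1087 units in the knockouts, against 1430, 1190 and 1068 units in wild type. These groups overlapped, and the difference was 0.13 (SE 0.11). Both genes were measured with small errors.

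Wfdc8 encodes a protein that joins WAP domains with a Kunitz domain, another protease inhibitor fold. Its probe A_55_P2042577 (NM_001080550) read 117, 166 and 139 units in the knockouts, against 151, 170 and 119 units in wild type. The second Wfdc8 probe, A_55_P2146768, read 330, 257 and 245 units in the knockouts, against 157, 303 and 300 units in wild type. The groups overlapped on both probes, with differences of 0.20 (SE 0.24) and 0.44 (SE 0.29). On the second probe wild type replicate 1 alone was low.

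Wfdc10 was bright on all arrays. Its probe A_55_P2129488 (NM_001039501) read 26220, 19830 and 23850 units in the knockouts, against 36220, 33030 and 32120 units in wild type. The groups did not overlap before or after scaling, and the difference was small, -0.29 (SE 0.08), and did not pass. The SDs were 0.09 in the knockouts and 0.06 in wild type (n = 3 each). It was -0.32 within slide 1 and -0.22 in the slide 2 pair.

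**Figure D2:**
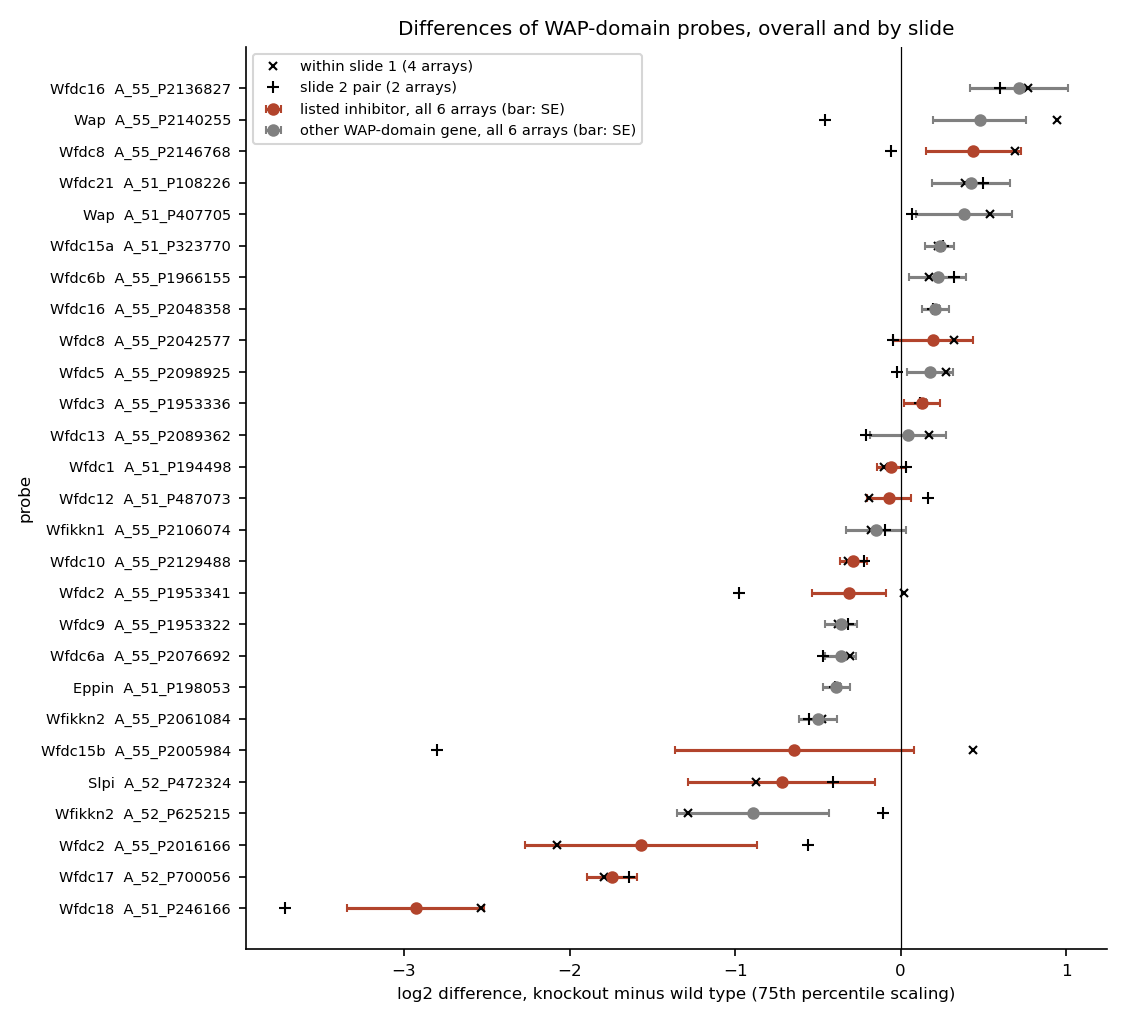
Log2 differences, knockout minus wild type, of the 12 listed inhibitor probes and the 15 tested probes of other WAP-domain genes, with SE bars over all 6 arrays. Crosses give the value within slide 1 and plus signs that of the slide 2 pair. Wfdc18 and Wfdc17 lie at -2.93 and -1.74 with both slides on the same side of 0, and Wfdc15b changes sign between slides (0.44 and -2.80).

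The other 13 WAP-domain genes on the array gave no call. Of these, 12 were tested and 0 passed in either direction in limma, with an unadjusted p under 0.05 for 4 lower and 2 higher genes. Among all 31801 tested probes, 3464 lower and 3897 higher had an unadjusted p under 0.05 in limma. Wfdc11 was not tested because it was dim. The median difference of the 12 tested genes was 0.11, with 5 of 12 negative, beside 0.05 over all measured genes. It was 0.04 over the 11 without Wfdc15a, which was saturated on 3 arrays. Eppin, which binds semenogelin on human sperm, read 22760, 19850 and 20910 units in the knockouts, against 36230, 32570 and 30710 units in wild type. The Eppin groups did not overlap, and the difference of -0.39 (SE 0.08) did not pass (limma adjusted p = 0.0662). Quantile normalization gave -0.47 for Eppin, which passed (limma adjusted p = 0.044). Wfikkn2, a secreted antagonist of myostatin with several inhibitor domains, differed by -0.50 (SE 0.11, limma adjusted p = 0.079) on its probe A_55_P2061084. It passed without wild type replicate 1 (-0.61, limma adjusted p = 0.047) and was at 0.22 under normexp background correction (limma adjusted p = 0.738). Wfdc6a (-0.36, limma adjusted p = 0.103) and Wfdc9 (-0.36, limma adjusted p = 0.109), singled out after their values were seen, had knockouts wholly below wild types in the same way as Eppin and Wfdc10. Of the 12 tested genes, 4 had the knockouts wholly below and 2, Wfdc15a (0.235) and Wfdc16 (0.209), had them wholly above. Over all tested probes the shares were 13.0% below and 18.5% above.

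The genes around the 2 called members were then read in chromosomal order, in windows set after the members' values had been seen. On chromosome 11, 14 protein-coding genes on each side of the Wfdc17 and Wfdc18 pair gave 30 genes, of which 27 were tested. Of these, 4 were lower and 0 higher, but the window was centred on Wfdc17 and Wfdc18 because they had passed. Among the other 25 tested genes 2 were lower, beside 2.64% of all tested probes. They were the chemokines Ccl6 and Ccl9, which attract myeloid cells in the mouse. Ccl6 read 56.6, 39.5 and 55.3 units in the knockouts, against 486, 225 and 469 units in wild type. It fell by 2.64 on the log2 scale (SE 0.29, limma adjusted p = 0.0124). Ccl9 read 50.8, 33.3 and 29.1 units in the knockouts, against 593, 203 and 198 units in wild type, and fell by 2.71 (SE 0.42, limma adjusted p = 0.0307). The wild types lay wholly above the knockouts for both chemokines. The Ccl6 call was lost without knockout replicate 2 (-2.54, limma adjusted p = 0.065), knockout replicate 3 (-2.74, limma adjusted p = 0.0564) or wild type replicate 3 (-2.47, limma adjusted p = 0.0506). That of Ccl9 held without wild type replicate 1 (-2.23, limma adjusted p = 0.0173) and was lost when any other array was left out (limma adjusted p = 0.0644 to 0.119). The Ccl9 call was also lost with slide as a block (limma adjusted p = 0.0616) and without the filter on dim probes (limma adjusted p = 0.0702), and neither chemokine passed within slide 1 alone (limma adjusted p = 0.109 for Ccl6 and 0.347 for Ccl9). Under normexp background correction the differences were -0.90 for Ccl6 and -0.69 for Ccl9, and neither passed (limma adjusted p = 0.537 and 0.566).

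The fall did not extend to every gene between them. Ccl4, which lies between Ccl6 and Wfdc17, differed by 0.31 (limma adjusted p = 0.384), and Ccl5 on the far side of Ccl9 by 0.13 (limma adjusted p = 0.545). Ccl3 was not tested. Wfdc21, the next WAP gene after Wfdc18, read 55.5, 59.8 and 54.9 units in the knockouts, against 40.1, 46.1 and 69.9 units in wild type. The Wfdc21 groups overlapped, with a difference of 0.42 (SE 0.23, limma adjusted p = 0.307). The remaining tested genes of the window lay between -0.37 and 0.56.

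On chromosome 2 the cluster was read from Wfdc5 to Wfdc3. It held 32 protein-coding genes, 16 of them with a WAP domain, and 26 were tested. Of the 7 members there, 0 passed. Among the other 19 tested genes 2 were lower and 0 higher, beside 2.64% and 0.248% of all tested probes. Both were genes of seminal vesicle secretory proteins between the WAP genes. Svs3b read 37.0, 35.6 and 33.0 units in the knockouts, against 98.3, 81.6 and 68.5 units in wild type, and fell by 0.96 (SE 0.14, limma adjusted p = 0.0265). Svs5, next to Slpi, read 3534, 3089 and 3062 units in the knockouts, against 5362, 5312 and 6218 units in wild type, and fell by 0.54 (SE 0.10, limma adjusted p = 0.0446). Svs3b, a dim probe, was at 0.42 under normexp background correction (limma adjusted p = 0.677). Its call held without wild type replicate 3 (limma adjusted p = 0.0405) and was lost without any other array (limma adjusted p = 0.0611 to 0.125). That of Svs5 was lost whichever array was left out (limma adjusted p = 0.0583 to 0.163) and under median scaling (limma adjusted p = 0.0574). Both calls were lost with slide as a block (limma adjusted p = 0.0702 for Svs3b and 0.096 for Svs5), without the filter on dim probes (limma adjusted p = 0.0623 and 0.092) and within slide 1 alone (limma adjusted p = 0.38 and 0.423). The Svs5 call was lost under normexp too (-0.50, limma adjusted p = 0.537).

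**Figure D3:**
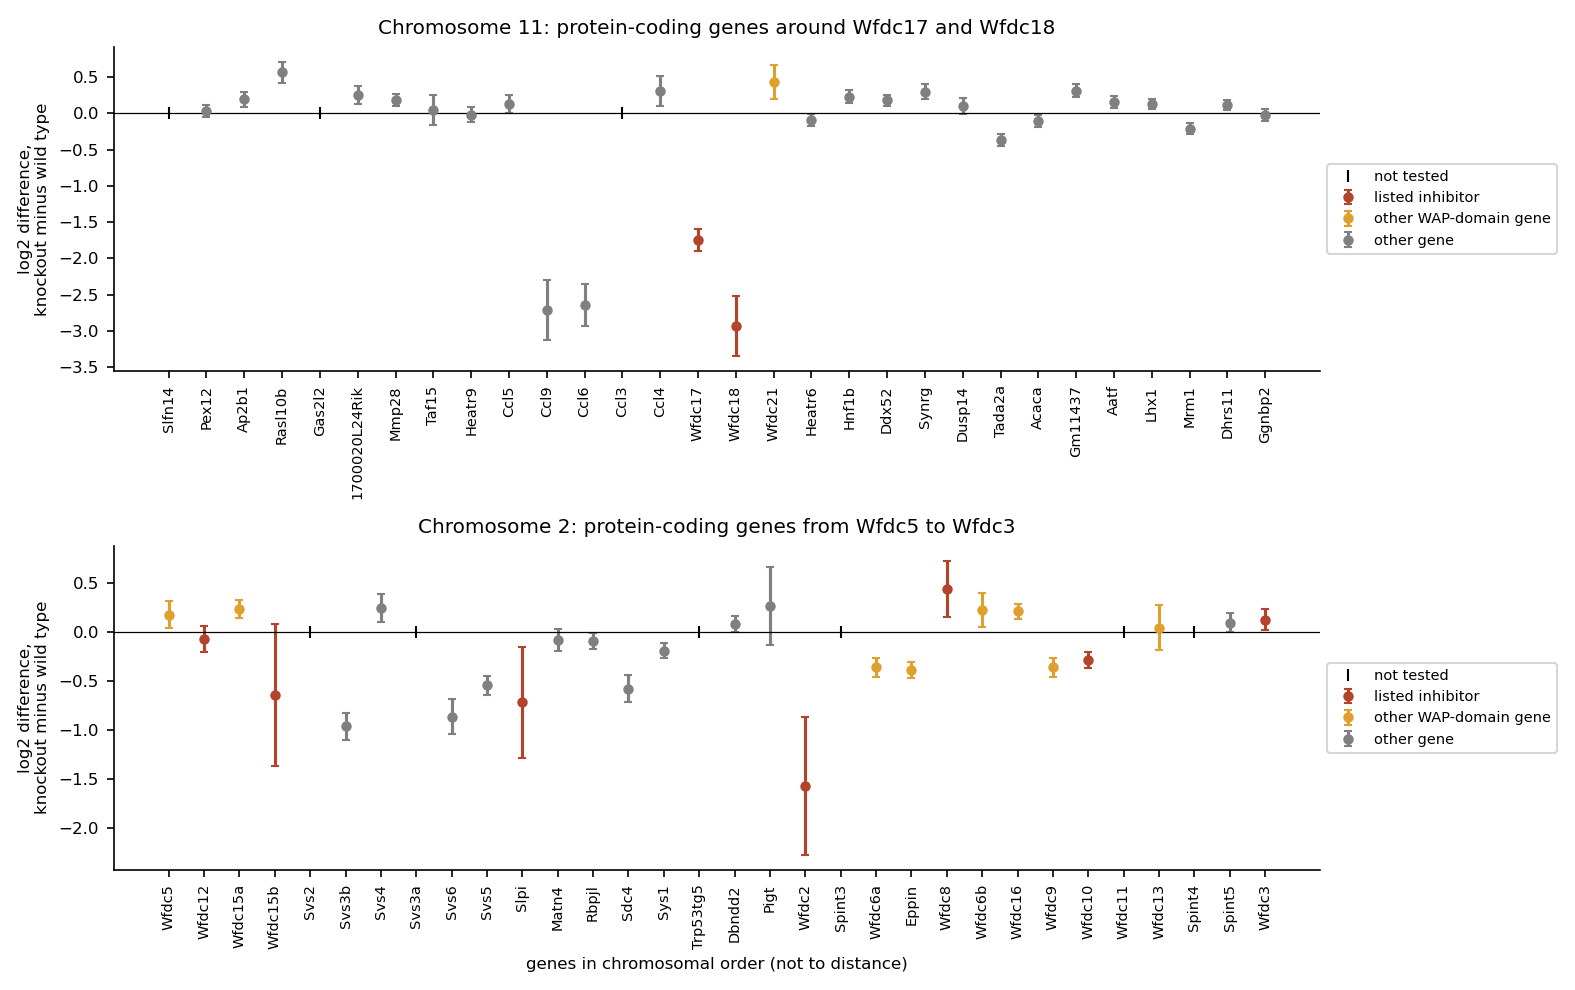
Log2 difference, knockout minus wild type (points, SE bars), of protein-coding genes in RefSeq order around Wfdc17 and Wfdc18 on chromosome 11 and across the chromosome 2 cluster, not drawn to distance. On chromosome 11 the points of Ccl9, Ccl6, Wfdc17 and Wfdc18 lie at -2.71, -2.64, -1.74 and -2.93, and the other tested genes between -0.37 and 0.56. On chromosome 2 the points lie between -1.57 and 0.44.

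Partners and relatives of these inhibitors were given as lists. Of 8 Kunitz-domain inhibitors 5 were tested and 0 passed (limma, unadjusted p under 0.05 for 1 lower and 0 higher), with a median of 0.09. Those with the smallest p were Tfpi, the tissue factor pathway inhibitor (-0.40, limma adjusted p = 0.177), and Spint1, an inhibitor of membrane-anchored proteases (0.20, limma adjusted p = 0.27). Of 13 serine proteases of the kind Slpi binds, 8 were tested and 0 passed (limma, unadjusted p under 0.05 for 0 lower and 1 higher), with a median of -0.06. Here the smallest p were those of the trypsinogen Prss1 (0.26, limma adjusted p = 0.204) and the plasminogen activator Plat (-0.25, limma adjusted p = 0.221). Cma1, Mcpt4, Cela1 and Plau were not tested. Progranulin, which Slpi protects from cleavage by elastase, was read with its partners Psap and Sort1. Psap, prosaposin, read 14930, 13890 and 15040 units in the knockouts, against 30470, 24740 and 29870 units in wild type, and fell by 0.69 (SE 0.10, limma adjusted p = 0.0279). Psap no longer passed with slide as a block (limma adjusted p = 0.0717), without the filter on dim probes (limma adjusted p = 0.0637), under normexp (limma adjusted p = 0.537), within slide 1 alone (limma adjusted p = 0.281) or when any 1 array was left out (limma adjusted p = 0.0557 to 0.0979). The progranulin gene Grn differed by -0.57 (limma adjusted p = 0.0829) and its receptor Sort1 by 0.24 (limma adjusted p = 0.13), and neither passed.

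Markers of macrophages, a myeloid cell type, and of the Sertoli and Leydig cells of the testis were read as lists. Of 16 macrophage markers 14 were tested and 4 were lower, 0 higher, with a median of -0.28. They were Cd74 (-1.12), the invariant chain of antigen presentation, the lysosomal protease Ctss (-0.87), the complement chain C1qc (-0.72) and the lipopolysaccharide co-receptor Cd14 (-0.72), with limma adjusted p-values of 0.01 to 0.0198. The knockouts were wholly below the wild types for 7 of the 14 and wholly above them for Aif1, whose probe was saturated on 5 of the 6 arrays. Among the 7 was the growth factor receptor Csf1r at -0.61, singled out after its values were seen, which did not pass (limma adjusted p = 0.0659). Of the 14 differences 11 were negative, some of them near 0, such as Lyz2 (-0.02) and Fcgr1 (-0.08). Cx3cr1 (0.21), Itgam (0.01) and Aif1 (0.27) were positive. Without Aif1 the macrophage markers had a summed scaled signal of 11.8 to 12.9 in the knockouts and 13.2 to 15.0 in wild type, and with it the sums overlapped (26.6 to 30.3 in the knockouts and 27.1 to 27.4 in wild type). Of the defining markers, Cd163 was not tested. Among Sertoli cell markers 3 of 16 passed as lower, Sox9, Gata1 and Aard, and 0 as higher, with a median of -0.44. The knockouts were wholly below the wild types for 12 of the 16. Beside these marker counts, 2.64% of all tested probes were called lower and 0.248% higher. Over all tested probes, 13.0% had the knockouts wholly below and 18.5% wholly above. Without Clu, which was saturated on all 6 arrays, the Sertoli markers summed to 25.8 to 26.7 in the knockouts and 34.6 to 36.4 in wild type. Among Leydig cell markers 1 of 7 passed as lower, Hsd3b1 (-0.76), and 0 as higher (limma, unadjusted p under 0.05 for 2 lower and 1 higher). Star, singled out after its values were seen, had the knockouts wholly above the wild types at 0.63 (limma adjusted p = 0.197). The Leydig markers summed to 17.6 to 28.0 in the knockouts and 23.3 to 34.8 in wild type, which overlap. Each such sum adds the signals of different probes and leans on the bright ones. The part of these cells in the member differences was not tested.

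Many markers of the cells that make Slpi and Wfdc2 elsewhere were not tested, for want of a probe past the filter with a value on all 6 arrays. Of 9 neutrophil markers on the array, 1 was tested, Camp, and it did not pass. S100a8, S100a9, Ngp, Ltf, Retnlg, Mmp8, Mmp9 and Cxcr2 were not tested. Of 16 epididymal and efferent duct markers 8 were tested and 0 passed, also at an unadjusted p under 0.05 in limma, with a median of -0.02, and Lcn5, Lcn8, Lcn9, Gpx5, Rnase9, Pate4, Defb12 and Pax8 were not tested. Rnase10, a duct marker singled out after its values were seen, differed by 0.11. The summed scaled signal of the tested duct markers was 0.552 to 0.656 in the knockouts and 0.544 to 0.645 in wild type. Of 8 epithelial markers 6 were tested and 0 passed, also at an unadjusted p under 0.05 in limma, with a median of -0.03. Of 7 blood cell markers 4 were tested and 0 passed (limma, unadjusted p under 0.05 for 2 lower and 0 higher), with a median of -0.43. The blood markers summed to 3.89 to 6.66 in the knockouts and 6.02 to 8.14 in wild type.

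The genes whose scaled signal ran most nearly parallel to 3 members were found by Pearson correlation over the 6 arrays, among 16946 genes. Arrays of Wfdc18 and Wfdc17 fall into 2 separate groups by genotype, so a high r there mostly restates a group difference, and no p is given. Closest to Wfdc18 were Nxnl2 (r = 0.998), Emb (0.997), Acsl4 (0.997), Vsig1 (0.996) and C2cd4d (0.996). Closest to Wfdc17 were Slc46a1 (r = 0.999), Scamp5 (0.999), Evi2a (0.998), Npl (0.997) and Nipal2 (0.996). Wfdc18 and Wfdc17 had r = 0.943 with each other, and 0.903 and 0.959 with Ccl6. Wfdc17 ran with Wfdc10 at r = 0.956.

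Slpi followed another order of arrays. Its closest genes were Igf2bp2 (r = 0.994), Msi1 (0.994), Col4a6 (0.989), Arl4c (0.989) and Fam234b (0.987), and its r with Wfdc18 and Wfdc17 was 0.327 and 0.331. Singled out after its values were seen, Elane, the neutrophil elastase gene and a main target of the Slpi protein, read 6346, 6150 and 6188 units in the knockouts, against 7740, 9581 and 16150 units in wild type. Wild type replicate 3 was the highest array for both genes. Slpi and Elane had r = 0.974 over the 6 arrays and r = 0.906 over the 5 arrays without wild type replicate 3. The Elane difference was -0.51 (SE 0.28), and after scaling its groups overlapped (limma adjusted p = 0.3). In the same protease list, the cathepsin G gene Ctsg read 36.6 to 58.0 units over the 6 arrays and Prtn3 33.6 to 48.2 units. Their differences were -0.08 (limma adjusted p = 0.652) and 0.22 (limma adjusted p = 0.294), and their levels were not compared with that of Elane. Which cells gave the Elane signal was not tested. Slpi also ran opposite to Wfdc3, with r = -0.966 over the 6 arrays and -0.864 without wild type replicate 3. This pair, too, was singled out after its values were seen. The SDs of Wfdc3 were only 0.07 in the knockouts and 0.18 in wild type (n = 3 each).

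Among the members, the pass of Wfdc17 held under more processing settings than that of Wfdc18. Wfdc17 passed in 11 of 13 other settings, with log2 differences of -1.84 to -1.17, and in all 6 fits that left out 1 array. It did not pass under normexp background correction or within slide 1 alone. The counts of settings given here leave out the replicate block. Under that block neither Wfdc17 (limma adjusted p = 0.076) nor Wfdc18 (limma adjusted p = 0.11) passed. Wfdc18 passed in 4 of 12 settings, with differences of -3.41 to -0.95, and in 1 of the 6 fits without 1 array, that without knockout replicate 1. Its smallest difference, -0.95, came with normexp correction, and Wfdc17 was then at -1.17, a setting where the median over all tested probes was 0.22. Under normexp the signs of Wfdc2 probe A_55_P1953341 (0.65), Wfdc12 (0.62) and Wfdc15b (0.16) turned, and Wfdc2 probe A_55_P2016166 was at -0.07. The probe of Wfdc18 drops out where all 6 arrays must be well above background. The other 10 member probes passed in none of the settings.

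**Figure D4:**
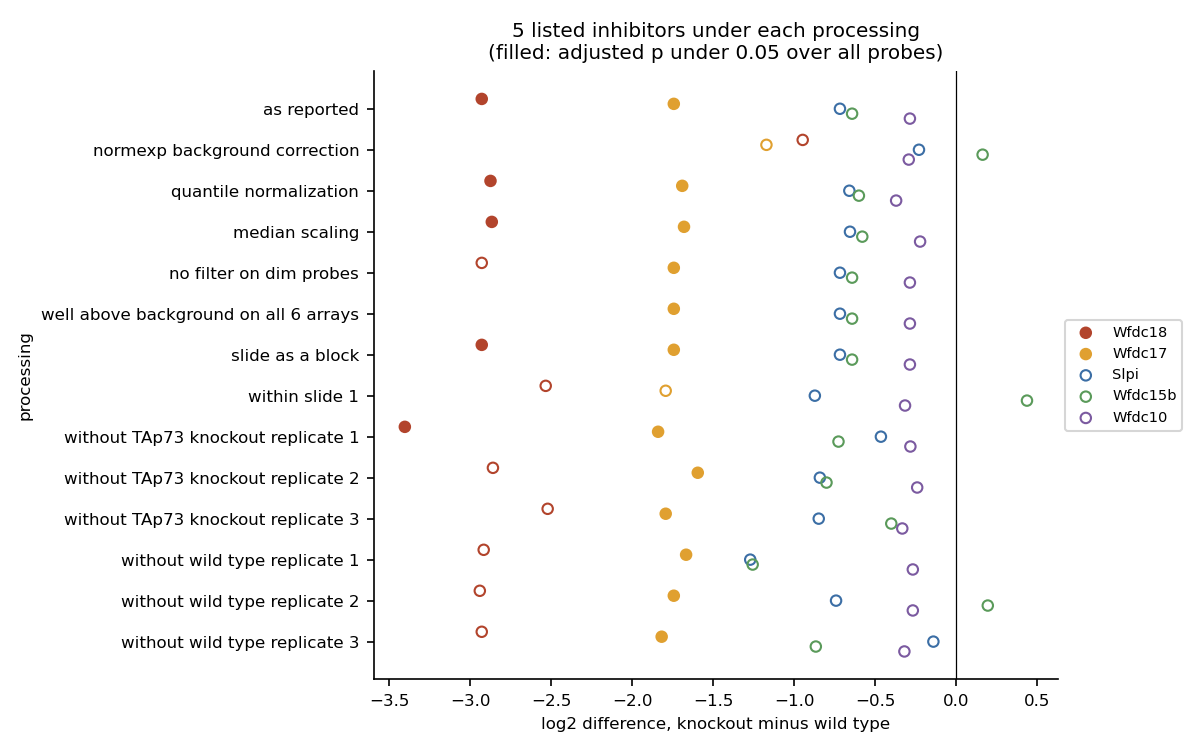
Log2 difference, knockout minus wild type, of 5 listed inhibitors under each processing setting, one line per setting. The replicate block and the value table are not drawn. Filled points had an adjusted p under 0.05 over all probes of that setting. Wfdc17 stays between -1.84 and -1.17 and Wfdc18 between -3.41 and -0.95, while Wfdc15b lies on both sides of 0 (-1.26 to 0.44).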

How the data were processed

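Gene expression was measured on 6 single-colour Agilent arrays, 1 per mouse, per the labels. The scanner files hold spot intensity, and the column used is the background-subtracted processed intensity that the authors deposited, made with Feature Extraction 10.7.3.1 per the file headers, on a design built on mouse build mm9. A second deposited table of processed intensity has column medians of 554.0 to 554.2, linear scale and no centring apparent from its values, and the sources used here do not give its normalization. The submitters' processing notes name limma, with no version. Each scanner array labelled knockout correlated best with a table column labelled wild type and the reverse (r 0.968 to 0.994, with its own label -0.403 to -0.271), so the label sets oppose each other. The scanner labels were kept because every Trp73 probe is lower on the arrays they name knockout, and the table served as an alternative.

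Control spots (1377 of 44397) and 163 to 280 flagged spots per array were left out. Log2 signals were averaged per probe, and scaled to the array's 75th percentile by subtraction. Tests were run on probes with at least 0.5 of their spots well above background on 3 or more arrays and at least 2 values per group. Groups were compared with limma 3.58.1 in R 4.3.3 (lmFit, eBayes, two-sided) and Benjamini-Hochberg adjustment over 31801 probes, which is the fit behind every adjusted p. The fit was tested on simulated data with the same narrow spread for every probe and no slide effect. That test does not bear on probes of wide spread such as Wfdc18. Accessions were matched to RefSeq names (GRCm38.p6), naming 26055 probes by 1 gene each and 0 by several, with 13374 unnamed. A gene with several probes is given by its brightest probe unless the probe is named. Levels of different probes were not compared, apart from marker lists' sums of scaled signal. The number of arrays limits precision.

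Members and lists were chosen with earlier results of these data known. Named genes were all member probes, Trp73, up to 4 called genes of a list or otherwise the 2 with the smallest p, and the 5 genes most parallel to Wfdc18, Wfdc17 and Slpi. Alternatives were normexp with offset 50 on median signals, in place of the mean signals first planned, quantile and median scaling, filters, slide and replicate blocks, slide 1 alone, leaving out each array, and the value table.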

Additional observations from a re-analysis of the deposited data

How the results depend on the processing

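The counts of calls depended strongly on the processing. Probes lower and higher in the knockout numbered 838 and 79 as reported, and 868 and 217 with quantile normalization, 569 and 143 with median scaling, 349 and 13 without the filter on dim probes, 1109 and 165 with all 6 arrays well above background, 299 and 15 with slide as a block, and 9 and 1 with a replicate block. Normexp background correction and slide 1 alone each gave 0 and 0 (limma, 810 lower and 1075 higher, and 1809 and 1332, at an unadjusted p under 0.05). Leaving out 1 array gave 116 to 420 lower and 7 to 28 higher. Member probes past the threshold were 2 as reported, 0 under normexp, within slide 1 and with a replicate block, 1 without the filter and with all 6 arrays well above background, and 1 to 2 when 1 array was left out. Same-numbered replicates did not deviate together (r -0.09 to -0.02). With 3 arrays per group and deviations taken from the group means, this cannot decide whether the numbers pair the samples. The replicate block is therefore kept as an alternative, in which neither called member passed. Under the value table's own labels, 217 probes were lower and 877 higher, 0 member probes were lower, and the signs turned, by construction of its labels, for Wfdc18 (2.88), Wfdc17 (1.69), Trp73 (6.01, 3.18 and 0.94), Ccl9 (2.67), Ccl6 (2.59), Svs3b (0.95), Svs5 (0.54), Psap (0.76), Eppin (0.47), Wfikkn2 (0.44), Tfpi (0.34), Spint1 (-0.24), Prss1 (-0.33) and Plat (0.20). Under normexp Wfikkn2 (0.22) and Svs3b (0.42) turned, as did the Wfdc2 probe A_55_P1953341 (0.65), Wfdc12 (0.62) and Wfdc15b (0.16), and the cause was not tested. With the value table left out, 166 other values of member probes remained. Of these, 160 moved by less than the replicate SD and 6 by more, and 0 of the called ones reversed. Dim probes such as Wfdc18 in the knockouts limit the size of a fold.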
